A study of Mus musculus with 15 samples.

Results

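In αTN4 lens cells, 311 of the 504 Pax6 peaks of control cells (61.7%) lay outside every H3K4me2 peak of newborn mouse lens, and the other 193 (38.3%) overlapped one by at least 1 bp. The 311 are called outside Pax6 peaks here and the 193 inside Pax6 peaks. The positions of the Pax6 and lens H3K4me2 peaks chose both sets, so the absence of lens H3K4me2 is the rule and not a result. Of all 66274 H3K4me2 peaks of control αTN4 cells, 38925 (58.7%) also lay outside lens H3K4me2, and nothing is read from that share. The outside Pax6 peaks nearest to a lens peak were in an intron of Neurl1a (1 bp away), near Agpat9 (5 bp), near Gm6990 (18 bp), in an intron of Gcn1l1 (24 bp) and near Nck2 (36 bp). The inside Pax6 peaks with the smallest overlap were in introns of Ank3 (6 bp shared) and Farp1 (11 bp) and near Gm3222 (29 bp), Tpra1 (32 bp) and Arntl (33 bp).

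The study used ChIP-seq, which sequences the DNA that an antibody recovers from chromatin, to compare Pax6 binding with methylation of lysine 4 of histone H3 (H3K4). αTN4 is a mouse lens epithelial cell line transformed with the SV40 T antigen. Control cells carried a control shRNA, and Pax6 KD cells carried a Pax6 shRNA, which the study's methods give as the construct sh2 for ChIP-seq. Both were stable populations made by lentiviral infection and puromycin selection, which the labels give as 14 days, and not clones. Pax6, RNA polymerase II (Pol2), H3K4me1, H3K4me2 and H3K4me3 were mapped in control cells and the 3 histone marks in Pax6 KD cells. H3K4me2 was also mapped in whole lens of CD-1 mice at postnatal day 1, with no shRNA. Lens therefore differs from αTN4 cells in transformation, culture, cell types and strain, and these cannot be told apart. Each library has 1 list of regions, so no difference between control and KD cells, or between cells and lens, can be set against replicate error. The intervals below are 95% intervals (Wilson for a share, Newcombe for a difference between shares) that cover counting error over regions only.

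Pax6 is a paired domain and homeodomain transcription factor required for formation of the eye and for lens fibre cell differentiation. H3K4me1 and H3K4me2 mark enhancers, H3K4me2 and H3K4me3 mark active promoters, and Pol2 is found at transcribed genes and at many active enhancers. AP-1, made of Fos and Jun proteins, binds many enhancers of cultured cells.

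The reference sequence around 11 outside Pax6 summits (mm9, + strand, 75 bp to each side) is shown because the results on binding words, repeats and loss of marks return to these peaks. Capitals mark AP-1 words, which read TGACTCA on one strand and TGAGTCA on the other, and matches with at most 2 mismatches to P6CON, the consensus for the Pax6 paired domain, over its 12 defined positions. The peaks of Ranbp6, Spp1, Col12a1, Tes and Pard3 had the highest −log10 q of the outside set. The peaks of Clvs2, Ank2 and Adra2a were the next in this order with an AP-1 word. The peaks in an intron of Cdk6 and near Gm9964 and St3gal1 followed with at most 1 mismatch to P6CON, a choice made after the values were seen. Peaks are named by the nearest start of a protein-coding transcript or by the gene they lie in.
Ranbp6 peak, chr19:29897606-29897756: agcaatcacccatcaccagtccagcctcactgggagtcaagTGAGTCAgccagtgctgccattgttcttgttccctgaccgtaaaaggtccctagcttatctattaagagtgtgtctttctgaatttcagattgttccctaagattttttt
Spp1 peak, chr5:104825446-104825596: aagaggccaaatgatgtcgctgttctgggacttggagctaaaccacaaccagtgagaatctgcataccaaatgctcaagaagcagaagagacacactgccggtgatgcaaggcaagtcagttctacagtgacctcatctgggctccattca
Col12a1 peak, chr9:79061225-79061375: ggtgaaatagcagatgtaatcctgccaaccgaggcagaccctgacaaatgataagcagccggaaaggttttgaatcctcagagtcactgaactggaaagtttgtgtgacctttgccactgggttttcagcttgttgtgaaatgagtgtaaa
Tes peak, chr6:17069698-17069848: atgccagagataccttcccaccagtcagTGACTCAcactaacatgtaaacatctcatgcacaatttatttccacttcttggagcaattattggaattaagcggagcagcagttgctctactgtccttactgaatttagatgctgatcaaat
Pard3 peak, chr8:129781406-129781556: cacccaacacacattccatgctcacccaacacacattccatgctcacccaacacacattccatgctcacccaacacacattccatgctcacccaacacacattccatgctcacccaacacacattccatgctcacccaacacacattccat
Clvs2 peak, chr10:33278007-33278157: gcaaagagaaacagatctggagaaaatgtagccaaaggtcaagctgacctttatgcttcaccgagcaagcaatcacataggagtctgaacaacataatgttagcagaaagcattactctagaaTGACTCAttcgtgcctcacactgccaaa
Ank2 peak, chr3:127044320-127044470: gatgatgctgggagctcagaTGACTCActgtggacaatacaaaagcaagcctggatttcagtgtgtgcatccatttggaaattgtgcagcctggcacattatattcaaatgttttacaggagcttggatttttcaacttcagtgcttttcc
Adra2a peak, chr19:54632595-54632745: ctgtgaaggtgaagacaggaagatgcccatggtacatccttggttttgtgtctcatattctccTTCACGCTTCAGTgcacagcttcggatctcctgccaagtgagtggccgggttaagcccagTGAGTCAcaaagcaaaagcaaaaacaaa
Cdk6 intron peak, chr5:3494168-3494318: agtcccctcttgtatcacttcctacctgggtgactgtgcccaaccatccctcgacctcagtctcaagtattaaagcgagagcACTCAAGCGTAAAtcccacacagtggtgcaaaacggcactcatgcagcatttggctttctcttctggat
Gm9964 peak, chr11:79110777-79110927: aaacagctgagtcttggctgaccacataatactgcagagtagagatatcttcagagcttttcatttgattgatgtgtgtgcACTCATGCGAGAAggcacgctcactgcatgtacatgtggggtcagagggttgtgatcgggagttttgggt
St3gal1 peak, chr15:66894145-66894295: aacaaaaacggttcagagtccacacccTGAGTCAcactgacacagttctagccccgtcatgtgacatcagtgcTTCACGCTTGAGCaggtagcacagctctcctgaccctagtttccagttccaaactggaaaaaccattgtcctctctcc
A match is a description and not a site. The Adra2a peak held both an AP-1 word and P6CON with 12 of 12 positions matched, and the St3gal1 peak held an AP-1 word and P6CON with 11 of 12. The Pard3 peak was a tandem repeat, in which 99.4% of the bases within 100 bp of the summit equalled the base 22 bp further on. No other outside window and none of the 193 inside windows reached 80% at any period tested.

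Markers were checked by peaks within 1 kb of a transcription start. Of 14 lens genes, 6 had H3K4me3 in control αTN4 cells (Cryaa, Cryab, Maf, Pax6, Prox1 and Six3), and 13 had H3K4me2 in lens. The other lens genes of the list had no H3K4me3 at a start in αTN4 cells. These were the epithelial genes Foxe3 and Cdh1, the crystallin genes Crybb2 and Cryba1, and the fibre cell genes Mip, Lim2, Bfsp1 and Bfsp2. Of 8 mesenchyme genes, 6 had αTN4 H3K4me3 and 8 had lens H3K4me2. None of 6 blood and vessel genes or 5 neuron and retina genes had αTN4 H3K4me3, while 2 and 4 of them had lens H3K4me2. The part of other cell types of the lens sample in the results was not tested. The Pax6 gene kept H3K4me3 at its starts in KD cells, and the level of the knockdown was not analysed here. The lists held 56214 H3K4me2 peaks for lens, 66274 for control cells and 65852 for KD cells. They held 38007 H3K4me1 regions, called islands here, for control cells and 18417 for KD cells. H3K4me3 peaks numbered 14869 and 14301, and control Pol2 peaks 17204. The read depth behind the peak lists is unknown.

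Outside Pax6 peaks were distal. Only 6 of 311 (1.93%, 0.887 to 4.14) had a protein-coding transcription start within 2 kb, against 47 of 193 inside peaks (24.4%, 18.8 to 30.9). The difference was −22.4 points (−29.0 to −16.5). Lens H3K4me2 lay within 1 kb of a start for 65.7% of all genes, so the rule itself kept many promoters out of the outside set. Since promoters made up so unequal a share of the sets, most comparisons of outside with inside peaks below were also made over the 305 outside and 146 inside peaks farther than 2 kb from a start, called distal. Among distal peaks, 180 outside peaks (59.0%) and 68 inside peaks (46.6%) were intergenic, a difference of 12.4 points (2.62 to 22.0). Introns held 121 and 76 of them. The median distance to a start was 37.5 kb for distal outside peaks and 31.9 kb for distal inside peaks. Distances over 100 kb were found for 92 outside and 27 inside peaks. The median Pax6 fold enrichment was 6.78 for distal outside peaks and 7.32 for distal inside peaks, and the median −log10 q was 9.21 and 10.5. The windows of 100 bp to each side of the summits had a median GC content of 44.8% and 47.3%, with a median of 2 and 4 CpG.

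The distance from outside Pax6 peaks to lens H3K4me2 ran from 1 bp to 798.3 kb, with a median of 16.3 kb. A lens peak lay within 1 kb of 30 outside peaks, within 10 kb of 120 and within 50 kb of 230, while 48 were more than 100 kb away. The farthest were near Grm8, a metabotropic glutamate receptor (798.3 kb), Slitrk6, a neuronal membrane protein (740.4 kb), the olfactory receptor gene Olfr1294 (567.5 kb), Epha7, an ephrin receptor (479.4 kb) and Cntnap5b, a contactin-associated protein (454.3 kb). All but the Olfr1294 peak had control αTN4 H3K4me1 and H3K4me2. At Grm8 the H3K4me2 fold was 11.4 in control cells and 13.9 in KD cells. Near the other end of the range, 26 outside Pax6 peaks lay in a control αTN4 H3K4me2 peak that itself reached lens H3K4me2, and 56 lay in a control H3K4me1 island that did. The αTN4 and lens marks of those peaks touched although the Pax6 peak did not.

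**Figure D1:**
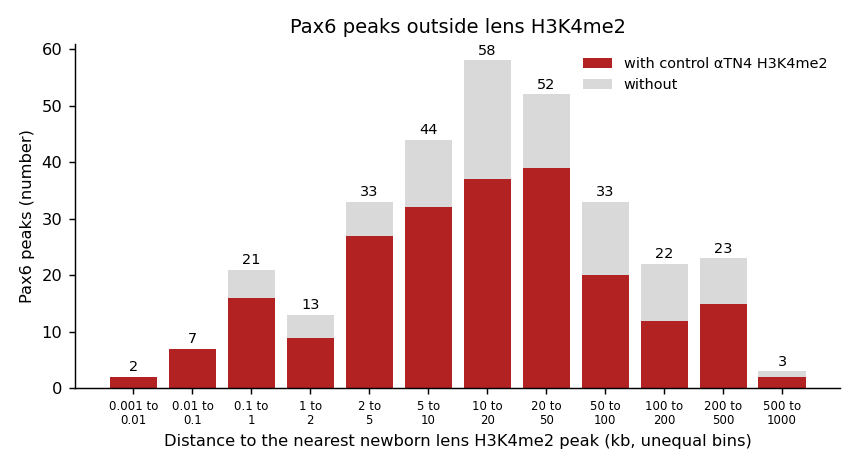
Number of outside Pax6 peaks by distance to the nearest newborn lens H3K4me2 peak (kb, unequal bins), split by control αTN4 H3K4me2 at the Pax6 peak. The tallest bin, 10 to 20 kb, held 58 peaks, and peaks with αTN4 H3K4me2 were found in every bin.

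The outside Pax6 peak with the highest −log10 q (68.7, fold 20.1) lay 10.2 kb upstream of Ranbp6, which encodes a Ran-binding protein of the importin family. The next, with a −log10 q of 58.0 and a higher fold of 20.7, lay 38.6 kb upstream of Spp1, which encodes osteopontin, a secreted matrix phosphoprotein. Another Spp1 peak lay 27.0 kb upstream of the same start. Col12a1, which encodes a collagen XII chain, was the nearest gene of 3 outside peaks at distances of 197.8, 399.5 and 465.4 kb, with −log10 q of 30.1, 54.3 and 8.20. The other peaks among the 10 of the highest −log10 q were near Tes (54.2), a focal adhesion protein, in an intron of Pard3 (42.3), a cell polarity protein, near C030046E11Rik (39.6), in an intron of Plec (39.5), a linker of the cytoskeleton, and in introns of Lama2 (37.1), a laminin chain, and Ppfia2 (31.0), a liprin. Of these 10, 9 had control H3K4me1, 9 had control H3K4me2 and 1, that of Plec, had Pol2. The Pard3 repeat had no αTN4 mark in either condition.

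Outside peaks were the nearest to 288 protein-coding genes and inside peaks to 186, with 11 genes in both. A gene was nearest to 2 or more outside peaks in 20 cases, and to 3 only for Col12a1, Fndc1 and Cntnap5b. The 3 Fndc1 peaks, all with control and KD H3K4me1, lay 113.0 to 159.7 kb from its start and far from lens H3K4me2. The 3 Cntnap5b peaks had control H3K4me1 and H3K4me2, although the start of Cntnap5b had neither H3K4me3 nor Pol2 in αTN4 cells. Of all 22372 protein-coding genes, 446 (1.99%) had an outside Pax6 peak within 50 kb. No protein-coding gene lay within 50 kb of 88 outside peaks (28 inside peaks).

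Genes of the lens and signalling lists were counted near outside Pax6 peaks and read against the share over all genes, 1.99% for outside and 1.55% for inside peaks. Of 26 eye and lens transcription factor genes found, 1 had an outside peak within 50 kb, Six3, a homeobox gene of eye formation. That peak lay 29.8 kb upstream, had a −log10 q of 5.41 and had no αTN4 mark in either condition. Inside peaks lay within 50 kb of 3 genes of this list, Eya4, Pax6 and Prox1. The 25 AP-1, Ets and Tead genes had 0 with an outside peak and 2 with an inside peak, Junb and Runx2. The 17 crystallin and fibre genes had 0 and 2, Cryba4 and Crybb1. The 29 mesenchymal and matrix genes and the 14 neural and retinal genes had 0 with either kind of peak. Of 30 growth factor signalling genes, Fgfr2, an FGF receptor gene with a long annotated transcript over its neighbours, had both kinds of peak, and Met and Spry2 had inside peaks. Outside counts of 0 or 1 in lists of this size are close to the background, so nothing is read from them about these genes. Of the 10 genes that the paper names, which were chosen on these cells, 3 had outside peaks (Dhrs3, Plekha1 and Tshz2) and 8 had inside peaks.

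At Tshz2, a zinc finger homeobox gene, the outside peak lay in an intron. Its H3K4me1 island had 16.0 ChIP reads per kb in control cells and 18.9 in KD cells, and its H3K4me2 fold was 5.52 and 5.17. Near Plekha1, which encodes an adaptor that binds phosphoinositides, 1 outside peak lay in an intron with an H3K4me2 peak in control cells only, and another lay in an intron of Htra1, with H3K4me1 in both conditions and no H3K4me2. Near Dhrs3, a retinaldehyde reductase gene, the outside peak lay 116 bp from lens H3K4me2, with an H3K4me1 island of 66 reads in control cells and none in KD cells.

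The 6 outside peaks within 2 kb of a start carried no H3K4me3 at the Pax6 peak. The Col6a3 peak lay 14 bp from a start of this collagen VI gene and overlapped H3K4me1 in both conditions (15.6 and 14.6 reads per kb) but no H3K4me2, H3K4me3 or Pol2. The Plec peak lay 1.05 kb upstream of a start. Its H3K4me2 fold was 30.8 in control and 42.0 in KD cells, above 99.9% of each list, and its Pol2 fold was 30.4. That peak was 89 bp from lens H3K4me2. The others were at Ephx1, an epoxide hydrolase gene, Fam26e, Gm9964 and Cald1, the caldesmon gene. The H3K4me2 at the Pax6 peak of Fam26e and Gm9964 was found in control cells only.

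At the starts of the genes beside Pax6 peaks, H3K4me3 lay within 1 kb of a start for 176 of 288 genes nearest to an outside peak (61.1%, 55.4 to 66.6), for 140 of 186 nearest to an inside peak (75.3%, 68.6 to 80.9) and for 48.5% of all genes. The difference between outside and inside was −14.2 points (−22.2 to −5.54). The inside set includes Pax6 peaks at starts, however. Over genes nearest to a distal peak, a comparison added after the values were seen, the shares were 173 of 282 (61.3%) outside and 97 of 140 (69.3%) inside, and the interval of the difference spans 0 (−7.94 points, −17.1 to 1.83). Pol2 was found at 59.7% of the 288 genes, 73.7% of the 186 and 47.2% of all genes, and over distal peaks its difference was −7.93 points (−17.2 to 1.91). Lens H3K4me2 lay within 1 kb of a start for 223 of the 288 genes nearest to an outside peak. This mark chose the sets, so nothing is read from that count. Of the 288 genes, 2 (0.694%, 0.1906 to 2.496) had αTN4 H3K4me3 without lens H3K4me2 at a start. These were Spp1 and Wisp2, the latter a matricellular gene of the CCN family, and both also had Pol2 at a start. The counts were 0 of 186 for genes nearest to an inside peak and 43 of 22372 (0.192%) for all genes. The interval of the outside share holds the share over all genes. The lens mark also enters this count, so nothing is read from it.

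In control αTN4 cells most outside Pax6 peaks lay in chromatin with H3K4me1 and H3K4me2. H3K4me1 was present at 252 of 311 (81.0%, 76.3 to 85.0) and H3K4me2 at 218 (70.1%, 64.8 to 74.9). Among distal peaks the H3K4me1 share was 80.7% outside and 76.0% inside, with an interval of the difference that spans 0 (4.63 points, −3.22 to 13.2). The H3K4me2 share was lower outside, 69.8% against 84.2% inside, a difference of −14.4 points (−21.8 to −6.06). The same mark in lens chose the sets, and this share was not set against regions without a Pax6 peak. H3K4me3 was present at 0 of 311 outside peaks, which allows a share of up to 1.22%. It was present at 33 of 193 inside peaks (17.1%, 12.4 to 23.0), 5 of them distal. Of all 22372 genes, however, 43 (0.192%) had control H3K4me3 without lens H3K4me2 at a start. The rule thus left little H3K4me3 for the outside set, and nothing is read from this difference.

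Both marks together were found at 204 outside peaks, H3K4me1 alone at 48, H3K4me2 alone at 14 and neither at 45. H3K4me1 without H3K4me2 was more frequent among distal outside peaks (47 of 305, 15.4%) than among distal inside peaks (7 of 146, 4.79%), by 10.6 points (4.63 to 15.7). This was not counted over all control H3K4me1 islands outside and inside lens H3K4me2. Whether the difference is particular to Pax6 peaks was therefore not tested. H3K4me2 was also weaker where it was present. The median fold of the H3K4me2 peak was 8.71 at distal outside peaks and 13.9 at distal inside peaks, at the 59.6th and 76.9th percentile of the list. The same order was found over all control H3K4me2 peaks. Of those outside lens H3K4me2, 1470 of 38925 had a fold of 13.2 or more, and of those inside, 15027 of 27349. At Pax6 peaks with H3K4me2 the counts were 45 of 218 outside and 99 of 166 inside. The strongest H3K4me2 peaks at outside Pax6 peaks were those of Plec, the pair of peaks near Impdh1, an enzyme of guanine nucleotide synthesis (fold 23.6), Rab22a, a small GTPase gene (23.1), and Samd9l (23.1). H3K4me1 islands did not show this gap: ChIP reads per kb had medians of 25.4 at distal outside and 24.3 at distal inside peaks, with 20.6 over all control islands. The input reads in the same islands, however, had medians of 15.2, 14.0 and 12.8 per kb, so the background was also higher there, and its part in the result was not tested.

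The H3K4me2 summit was offset from the Pax6 summit by a median of 312 bp at distal outside peaks and 309 bp at distal inside peaks. It lay within 100 bp of the Pax6 summit at 17 of 213 distal outside peaks.

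**Figure D2:**
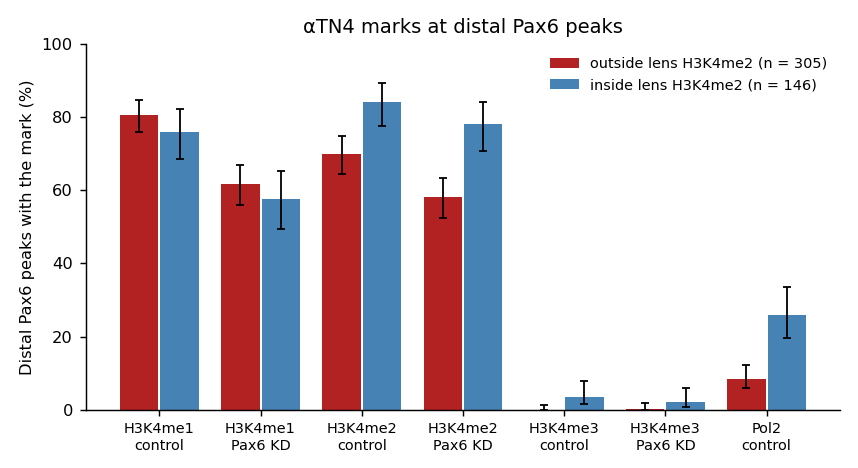
Percent of distal Pax6 peaks, 305 outside (red) and 146 inside (blue) newborn lens H3K4me2, that overlapped each αTN4 mark in control or Pax6 KD cells, with 95% Wilson intervals. H3K4me2 and Pol2 were lower at outside peaks (69.8% and 8.52% in control cells) than at inside peaks (84.2% and 26.0%), while H3K4me1 was at 80.7% and 76.0%.

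Pol2 was infrequent at outside Pax6 peaks. It overlapped 27 of 311 (8.68%, 6.04 to 12.3) against 71 of 193 inside peaks (36.8%). Among distal peaks the counts were 26 of 305 (8.52%, 5.88 to 12.2) and 38 of 146 (26.0%, 19.6 to 33.7), a difference of −17.5 points (−25.6 to −10.1). Over all distal control H3K4me2 peaks, Pol2 was found at 4.19% of those outside lens H3K4me2 and 24.6% of those inside. For the same kind of region, Pol2 was found at 29 of 189 distal H3K4me2 peaks outside lens H3K4me2 that held an outside Pax6 peak (15.3%, 10.9 to 21.2) and at 40 of 114 of those inside that held an inside Pax6 peak (35.1%, 26.9 to 44.2). The H3K4me2 at distal outside Pax6 peaks had a median fold of 8.71. Over all control H3K4me2 peaks, which include those inside lens H3K4me2 and at starts, it was 6.90. The part of H3K4me2 strength in the Pol2 counts was not tested.

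After the Plec peak, the outside peaks with the strongest Pol2 were intergenic ones near Nacc2, a BTB domain protein gene (fold 15.2, at the 71.7th percentile of the Pol2 list), and near Gcm1, a transcription factor gene of placental trophoblast (11.1, 55.9th percentile). The peaks near Ube2c (7.86), Vdac1 (7.58) and Plod2, a lysyl hydroxylase of collagen (7.33), followed. The other 21 had folds from 2.47 to 7.09, so most Pol2 at outside Pax6 peaks was in the lower part of its list, with a median at the 22.0th percentile.

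In Pax6 KD cells H3K4me2 remained at 175 of the 218 outside Pax6 peaks that had it in control cells (80.3%), and at 155 of 166 inside peaks (93.4%), a difference of −13.1 points (−19.6 to −6.32). Among distal peaks the shares were 172 of 213 (80.8%) and 114 of 123 (92.7%), a difference of −11.9 points (−18.7 to −4.29). H3K4me2 appeared in KD cells only at 5 outside peaks, near Pkhd1, Slc4a7, Ftsjd2, 5430407P10Rik and Zeb2, all with H3K4me1 in both conditions and KD folds from 3.44 to 6.49. None of the 193 inside peaks had it in KD cells only, and the interval of the difference spans 0 (1.61 points, −0.549 to 3.71). Over the whole list 7.34% of KD H3K4me2 peaks had no control peak. H3K4me3 was found at 1 outside peak in KD cells, near Samd9l (fold 8.02), where control cells had none. Over the whole lists 2.65% of KD H3K4me3 peaks had no control peak and 10.1% of control H3K4me3 peaks had no KD peak, and with 0 outside peaks marked in control cells there was no H3K4me3 to lose.

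Of the 43 outside peaks without H3K4me2 in KD cells, 26 had a KD peak elsewhere in the same control H3K4me2 peak, at a distance of 0 to 399 bp (median 62.5 bp). The other 17 had no KD peak in that control peak, with a median distance of 6072 bp to the nearest. Where H3K4me2 was kept, the KD peak was narrower than the control peak at 156 of 175 outside Pax6 peaks (median width ratio 0.817), at 127 of 155 inside peaks (0.917) and at 39158 of 54644 kept peaks over the whole list (0.898). Near Ank, a pyrophosphate transport gene, a control H3K4me2 peak of 2665 bp with a fold of 18.1 held a pair of outside Pax6 peaks, and the KD peak covered one of them only. At the Nedd1 peak, with a control fold of 15.9 over 2949 bp, H3K4me2 and H3K4me1 were both found in control cells only.

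Counted over whole H3K4me2 peaks, the gap between outside and inside was smaller. Of control H3K4me2 peaks with an outside Pax6 peak, 197 of 216 (91.2%, 86.7 to 94.3) had a KD peak anywhere in them, and 160 of 167 with an inside Pax6 peak (95.8%, 91.6 to 98.0), a difference of −4.61 points (−9.62 to 0.616) whose interval spans 0. No KD peak was found in 19 of the 191 H3K4me2 peaks that held an outside Pax6 peak and themselves lay outside lens H3K4me2 (9.95%, 6.46 to 15.0), against 25.8% of all 38925 peaks of that kind. For inside Pax6 peaks the count was 7 of 164 (4.27%, 2.08 to 8.55), against 5.76% of 27349. Over the whole list 17.5% of control H3K4me2 peaks had no KD peak.

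The share of H3K4me2 peaks kept followed their strength. With the whole control list cut into 4 groups of equal size by fold enrichment (1.48 to 4.49, 4.49 to 6.90, 6.90 to 13.2, and 13.2 to 33.9), a KD peak was found for 14 of 24, 44 of 53, 96 of 96 and 43 of 43 control H3K4me2 peaks with an outside Pax6 peak. For all control peaks outside lens H3K4me2 the shares were 48.0%, 82.7%, 99.6% and 100%. With an inside Pax6 peak the counts were 5 of 8, 12 of 16, 44 of 44 and 99 of 99. Outside Pax6 peaks thus had more of their H3K4me2 in the 2 lower groups, and within a group the intervals of outside and inside overlapped. At the Pax6 peak itself the third group had 85 of 97 outside (87.6%, 79.6 to 92.8) and 44 of 44 inside (100%, 92.0 to 100).

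**Figure D3:**
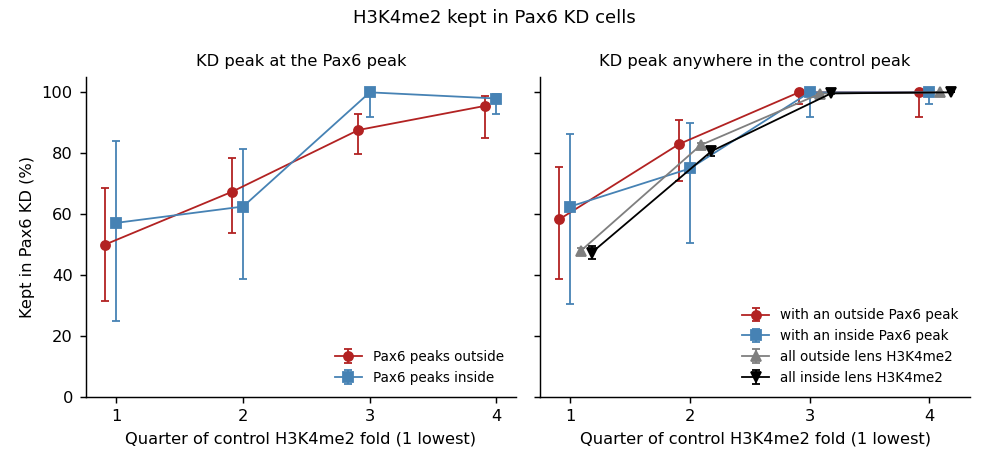
Percent of H3K4me2 kept in Pax6 KD cells by control H3K4me2 fold enrichment in 4 groups of equal size over the whole list, at the Pax6 peak (left) and anywhere in the control H3K4me2 peak (right), with 95% Wilson intervals. Shares were lowest in the weakest group of every set, and in the right panel all sets reached 99.6% or more in the 2 upper groups.

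The rank of the kept H3K4me2 peaks also moved. From control to KD cells, the percentile by fold enrichment fell at 118 of 172 distal outside peaks, with a median change of −6.74 points. It fell at 61 of 114 distal inside peaks, with a median of −0.47. The change was not computed over all kept H3K4me2 peaks or over those of similar fold. Whether it is particular to outside Pax6 peaks was therefore not tested. C030046E11Rik, the stronger Spp1 peak and Tes fell by more than that median. They went from the 51.7th to the 41.9th, the 51.6th to the 40.8th and the 67.1st to the 58.2nd percentile. The strongest Col12a1 peak fell further, from a fold of 17.0 (85.6th percentile) to 8.51 (56.5th). The Col12a1 peak farthest from the start instead went from a fold of 17.9 to 29.8. The other Spp1 peak also rose, from a fold of 12.8 (73.8th percentile) to 16.3 (80.8th).

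In Pax6 KD cells H3K4me1 remained at 183 of 252 outside Pax6 peaks (72.6%, 66.8 to 77.8) and at 86 of 131 inside peaks (65.6%). Among distal peaks the shares were 178 of 246 (72.4%) and 81 of 111 (73.0%), a difference of −0.62 points (−10.1 to 9.72), an interval wide enough to hold a difference of several points either way. Counted over whole islands, 54 of 248 with an outside Pax6 peak (21.8%, 17.1 to 27.3) and 29 of 130 with an inside Pax6 peak (22.3%, 16.0 to 30.2) had no KD island, against 53.8% of all 38007 control islands. For islands that themselves lay outside lens H3K4me2 the count was 50 of 193 (25.9%, 20.2 to 32.5) against 54.8% of all such islands, and for islands inside it 29 of 130 against 52.0%. Islands with Pax6 held more reads than most. With all control islands cut into 4 groups of equal size by ChIP reads, a KD island was found for 2 of 15, 4 of 16, 32 of 53 and 156 of 164 islands with an outside Pax6 peak, and for 16.2%, 28.2%, 56.3% and 89.6% of all islands outside lens H3K4me2.

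The island with the most reads among outside Pax6 peaks without KD H3K4me1 was that of Wisp2, 36.8 kb wide with 1405 ChIP reads in control cells. The islands near Gdnf, a neurotrophic factor gene (416 reads), in Cubn, the cubilin gene (386), near Spp1 (371) and near Ptgs1, a cyclooxygenase gene (275), followed. In each of these 5, a KD island lay elsewhere in the control island, so that the mark was shortened and not gone. The Spp1 island, 15.8 kb wide in control cells, held both Spp1 Pax6 peaks. In KD cells a 4.6 kb island with 94 reads was left over the stronger Pax6 peak and none over the other, and H3K4me2 was kept at both. Of the 69 outside peaks that lost H3K4me1, 15 had a KD island elsewhere in the control island, and of the 45 inside peaks, 16 did.

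H3K4me1 appeared in KD cells only at 10 outside peaks and at 3 inside peaks. The 10 were in introns of Ndel1, Ak1, Oas1e, Hip1 and Mfap3l and near Gm11016, Ank, Crim1, Atp10a and Col12a1, with 51 to 224 ChIP reads in the KD island. Over all KD islands 6.93% had no control island. The Ank and Col12a1 peaks had H3K4me2 in both conditions, with control folds of 18.1 and 17.9, and at Col12a1 that is the peak whose H3K4me2 fold reached 29.8. Their KD islands were 9.6 and 12.6 kb wide.

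Where a KD island lay anywhere in the H3K4me1 island, the median fall in density was slightly larger at Pax6 peaks than over islands in general. The median change in ChIP read density of every kept island was −0.31 on the log2 scale (KD over control). Input read density in the same islands changed by a median of −0.29, and its part in the ChIP change was not tested. Relative to the ChIP median, islands at distal outside Pax6 peaks changed by a median of −0.11 (quartiles −0.28 and 0.11), with 123 of 193 below 0. Islands at distal inside peaks changed by −0.06 (quartiles −0.22 and 0.15), with 56 of 92 below 0. These values overlap over most of their range. Over islands paired 1 to 1, relative to the median of such islands, the medians were −0.056 at 134 distal outside and −0.049 at 60 distal inside peaks. The gap between the sets was thus hardly seen there. The change was not set against islands of similar control density. The libraries differ in an unknown depth, which this scale removes only on average.

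**Figure D4:**
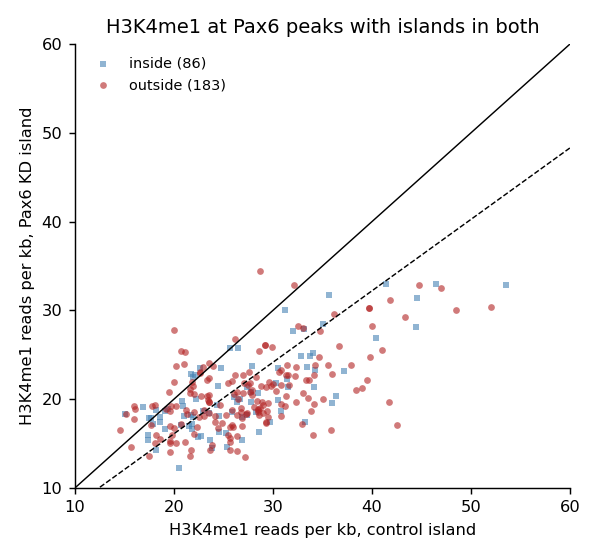
H3K4me1 ChIP reads per kb in the control (x) and Pax6 KD (y) island at each Pax6 peak with an island in both, 183 outside (red circles) and 86 inside (blue squares). The solid line marks equal density and the dashed line the median change over all kept islands, log2 of −0.31; both sets lie around the dashed line and overlap.

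Taking both marks at once, 204 outside peaks had H3K4me1 and H3K4me2 in control cells. In KD cells 130 of them kept both, 37 kept H3K4me2 only, 24 kept H3K4me1 only and 13 kept neither. For the 123 inside peaks with both marks the counts were 75, 40, 7 and 1. The share with neither left was higher outside by 5.56 points (1.07 to 9.84), and by 5.07 points over distal peaks (0.0834 to 9.35). The share with H3K4me2 only left differed by −14.4 points (−24.3 to −4.75), but 14 of the 40 inside peaks lay within 2 kb of a start. Over distal peaks the counts were 37 of 199 outside and 26 of 104 inside, and the interval of the difference spans 0 (−6.41 points, −16.7 to 3.05). Over all outside peaks, the number with neither mark rose from 45 in control to 77 in KD cells, and over inside peaks from 19 to 25.

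Sequence words were counted within 100 bp of the summits of distal Pax6 peaks, on both strands. AP-1 words (TGACTCA) were found at 62 of 305 outside peaks (20.3%, 16.2 to 25.2) and at 18 of 146 inside peaks (12.3%, 7.94 to 18.7), a difference of 8.0 points (0.449 to 14.6). Windows centred 500 bp to either side held AP-1 words in 4.59% and 1.71%. The same order was found without Pax6 as the anchor, since the summits of all distal control H3K4me2 peaks held AP-1 words in 8.30% outside lens H3K4me2 and 3.49% inside. Within 50 bp of the summit the shares were 10.2% and 7.53%, and the interval of the difference spans 0 (2.63 points, −3.55 to 7.72). The Runx word TGTGGT was found at 25.2% of distal outside and 15.8% of distal inside peaks, a difference of 9.49 points (1.33 to 16.7). Beside the summits its shares were 16.6% and 13.7%, and at H3K4me2 summits 17.3% and 13.3%.

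P6CON with at most 2 mismatches was found at 16.7% of distal outside peaks (13.0 to 21.3) and 17.8% of distal inside peaks (12.5 to 24.8), and the interval of the difference spans 0 (−1.09 points, −9.04 to 5.97). Beside the summits it was found in 3.61% and 2.40% of windows. The Tead word GGAATG was likewise found at 23.9% and 23.3% of summits, against 10.3% and 9.59% beside them. The words CAGGAA and CCGGAA of Ets factors, TGACAG of Meis, CATTGT of Sox and TGCTGAC of Maf differed between distal outside and inside peaks by less than the interval of the difference. The palindromic homeodomain word, a pair of TAAT cores on opposite strands, was found at 1 of 305 outside and 4 of 146 inside windows, a difference of −2.41 points (−6.51 to −0.164) that rests on 5 windows in all.

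**Figure D5:**
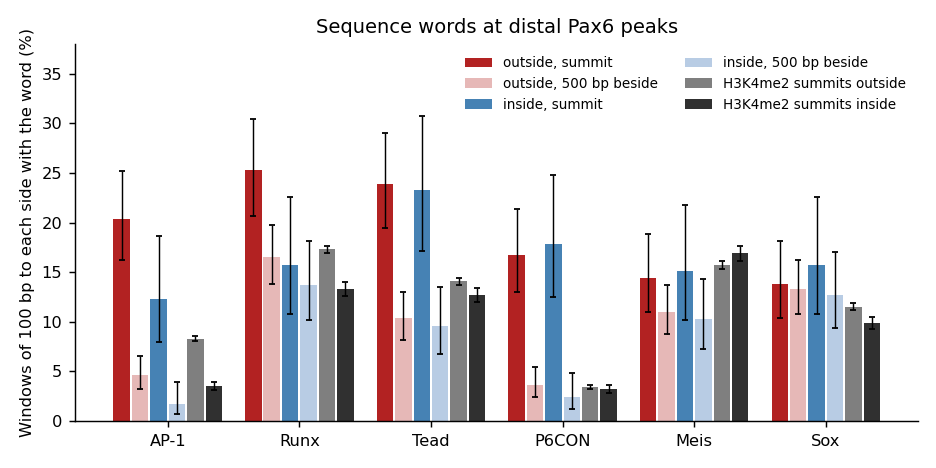
Percent of windows of 100 bp to each side that held each sequence word, at the summits of distal outside (red) and inside (blue) Pax6 peaks, 500 bp beside them (pale), and at summits of all distal control H3K4me2 peaks outside (grey) and inside (black) lens H3K4me2, with 95% Wilson intervals. AP-1 stood at 20.3% and 12.3% of the outside and inside Pax6 summits, and P6CON at 16.7% and 17.8%.

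The AP-1 words sat in marked chromatin. Among outside peaks they were found at 50 of 204 with both marks (24.5%), 9 of 48 with H3K4me1 alone, 1 of 14 with H3K4me2 alone and 2 of 45 with neither (4.44%). The difference between both and neither was 20.1 points (8.36 to 27.2). Of the 62 outside peaks with an AP-1 word, 59 (95.2%, 86.7 to 98.3) had control H3K4me1 and 50 (80.6%, 69.2 to 88.6) had KD H3K4me1, against 193 (77.5%) and 143 (57.4%) of the 249 without the word. Outside peaks that kept H3K4me1 held an AP-1 word in 27.3% and those that lost it in 13.0%, a difference of 14.3 points (2.71 to 23.4). Control islands that were kept also held more reads, a median of 163 against 72 where lost. Islands with the word had a median of 146 reads and those without it 128. The part of island reads in the AP-1 difference was not tested. The Ranbp6 and Tes peaks, whose AP-1 words are shown above, kept both marks in KD cells. The Ank2 and Clvs2 sequences show the AP-1 word at a distance from the summit, toward either end of the sequence.

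The closest matches to P6CON were few. Of the 13 outside peaks with at most 1 mismatch, 8 had control H3K4me1 and 3 of these kept it, and 8 had control H3K4me2 and 4 of these kept it. Of the 7 such inside peaks, 5 had control H3K4me1 and 2 of these kept it. H3K4me2 was present at 5 of these inside peaks and kept at all 5. At the Adra2a peak shown above, which matched all 12 positions, an H3K4me1 island with 20.6 reads per kb was found in control cells only. The Gm9964 peak had H3K4me1 and H3K4me2 in control cells only, and the St3gal1 peak kept an H3K4me1 island that went from 42.5 to 17.1 reads per kb while its H3K4me2 was found in control cells only. The Cdk6 intron peak kept both, with an H3K4me2 fold of 11.1 and 12.2. With the wider limit of 2 mismatches the pattern was not seen: H3K4me1 was kept at 27 of 39 such outside peaks (69.2%) and at 156 of 213 others (73.2%), a difference of −4.01 points (−20.6 to 9.73). This grouping was made after the values were seen.

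The 45 outside peaks with neither H3K4me1 nor H3K4me2 differed from those with both in more than the marks. None overlapped Pol2, which allows a share of up to 7.87%, against 23 of the 204 with both marks (11.3%), a difference of 11.3 points (2.61 to 16.4). Peaks with H3K4me1 alone were close to the unmarked ones, with Pol2 at 1 of 48 (2.08%, 0.369 to 10.9). With H3K4me2 alone it was found at 3 of 14. Their median distance to lens H3K4me2 was 26.6 kb, against 15.3 kb for the peaks with both marks, and their median −log10 q was 7.62, against 9.51. Among the stronger of them were the Pard3 repeat and a peak in an intron of Ttc26 (−log10 q 16.6). In KD cells 5 of the 45 had H3K4me1 and none had H3K4me2.

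Marks were also counted by distance to lens H3K4me2. Control H3K4me2 was present at 61 of 76 outside peaks within 5 kb (80.3%, 70.0 to 87.7), at 67.6% of 102 between 5 and 20 kb, at 69.4% of 85 between 20 and 100 kb and at 29 of 48 farther away (60.4%, 46.3 to 73.0). H3K4me1 stood at 84.2%, 84.3%, 82.4% and 66.7% (52.5 to 78.3) in the same order. The share of H3K4me2 kept in KD cells stayed between 78.3% and 82.8% over these distances. From the lowest to the highest of 4 groups of equal size by Pax6 −log10 q, H3K4me1 was present at 76.9%, 74.4%, 80.5% and 92.3% of outside peaks, and P6CON with at most 2 mismatches at 10.3%, 20.5%, 14.3% and 23.1%. The Wilson intervals of all neighbouring groups overlap, and so do those of the nearest and farthest distance groups. Overlap of such intervals does not show that the shares are equal. No interval was computed for the differences between these groups, so whether they differ was not tested.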

How the data were processed

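ChIP-seq lists of 9 libraries were used, 1 library per antibody and condition. The antibody field of the control Pax6 and Pol2 samples names each other's antibody, so these were assigned by title. Names in the control H3K4me2 list hint at pooled replicates, which is not stated elsewhere. The RNA-seq and input samples were not analysed here.

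Per the study's methods, Bowtie mapped the reads to mm9, and the authors called Pax6, Pol2, H3K4me2 and H3K4me3 peaks with MACS2 and H3K4me1 islands with SICER. For MACS2 peaks the authors deposited the fold enrichment (a ratio) and the −log10 of the p-value and q-value. For SICER islands the deposited values are the count of ChIP reads, the count of control reads (the control library is not named, and they are called input reads), a p-value, a fold and an FDR. Percentiles are ranks by fold within a list. Folds and percentiles of control and KD lists were also set side by side. The median H3K4me2 fold was 6.90 in the control list and 7.36 in the KD list. Differences between the libraries are not removed from such comparisons of folds. How deeply the MACS2 libraries were sequenced is unknown, and for H3K4me1 only reads within islands are listed.

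Overlap meant at least 1 bp. Starts were the 51723 starts of protein-coding transcripts of GENCODE vM1 on mm9. Density was ChIP reads per kb, and its change the log2 of KD over control. Sequence was read from mm9. Shares have Wilson and differences Newcombe 95% intervals, checked on simulated data. No p-value was computed, as each condition has 1 library. Outside Pax6 peaks and gene lists were chosen with earlier results of these data known. Named were the 10 outside peaks of the highest −log10 q, those within 2 kb of a start, the 5 with the most H3K4me1 reads lost, those with H3K4me1 in KD only, the 5 nearest to and farthest from lens H3K4me2, genes nearest to 3 outside peaks, listed genes within 50 kb, and the 5 inside peaks of the smallest overlap. Other peaks named (by Pol2 fold, H3K4me2 fold, neither mark, marks in 1 condition, P6CON match) were chosen after their values were seen. Sox1, Tfap2a and Tfap2b were not analysed here. Alternatives covered thresholds, overlap, the definition of outside and of promoters, and windows. Sequence was extracted through samtools 1.23.1 and pysam 0.24.0, intervals came from SciPy 1.17.1, and pandas 2.3.3 and NumPy 2.4.6 ran under Python 3.11.15, with plots by matplotlib 3.10.9.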

Additional observations from a re-analysis of the deposited data

How the results depend on the processing

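Of 130 values under other settings, 62 of the shares and medians of the outside set and 53 of the differences stayed within the interval of the reported value, and no difference whose interval leaves out 0 changed direction. Differences whose interval spans 0 did turn. That in P6CON, −1.61 points over all peaks, was 1.11 with no lens H3K4me2 within 1 kb of an outside peak, 0.553 with at most 1 mismatch and 8.44 (−0.425 to 17.2) with at most 3, and that in H3K4me1 kept went from 6.97 to −0.62 over distal peaks. The share at promoters was 8.04% with starts within 5 kb. Counting peaks within 1 kb of the Pax6 peak, the control H3K4me2 share was 76.2%, the Pol2 share 12.9% and the H3K4me2 kept 90.7%, and the difference in H3K4me2 kept, −4.55 points (−9.50 to 0.759), then spans 0. AP-1 words were found at 9.97% within 50 bp of the summit, and P6CON at 4.18% with at most 1 mismatch and 60.8% with at most 3. With a KD region anywhere in the control region, an alternative chosen after seeing the data, 91.2% of H3K4me2 peaks and 78.2% of H3K4me1 islands were kept. The difference in control H3K4me1 between outside and inside was 4.63 points over distal peaks and 4.85 with islands within 1 kb, and that in H3K4me3 was −3.43 and in Pol2 −17.5 over distal peaks. The share of H3K4me3 kept has no value, since 0 outside peaks had it. No paired analysis was possible because each condition has 1 library and no result comes from a test. The unknown depth of the peak lists limits every statement on an absent mark.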

Other observations

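Pax6 peaks were unevenly spread over the chromosomes, with more per Mb in groups of chromosomes with more input reads in control H3K4me1 islands. On the 5 chromosomes with the lowest median input (9, 12, 16, 18 and X, 7.92 to 9.50 reads per kb) there were 32 Pax6 peaks, or 5.32 per 100 Mb, and on the 5 with the highest (1, 2, 3, 15 and 17, 14.0 to 15.6 reads per kb) there were 222, or 30.1 per 100 Mb. The 10 chromosomes between had 250, or 19.2 per 100 Mb. Single chromosomes did not all follow this order. Chromosome 19, with a median input of 12.8 reads per kb, had 55.4 Pax6 peaks per 100 Mb, and chromosome 1, with 14.0, had 20.3. Control H3K4me2 peaks numbered 17.5, 28.4 and 26.8 per Mb in the same groups, and lens H3K4me2 peaks 17.1, 21.0 and 23.4. The share of Pax6 peaks outside lens H3K4me2 was 68.8%, 65.3% and 57.6%, so the outside set is found in each group. The cause was not tested.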
